A study of Mus musculus with 24 samples.

Results

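The Msx, Prrx and Alx homeobox genes described here are 6 transcription factor genes of embryonic facial mesenchyme: Msx1, Msx2, Prrx1, Prrx2, Alx1 and Alx4. They were chosen by name, with no cut-off on measured values but with earlier results of these data known. Their source was the 26611 genes with an Entrez identifier in the count table of the series. All 6 were found there, and all 6 passed the filter on low counts together with 14500 others (14506 genes tested). The lowest count of any member in any library was 167, for Alx1.

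RNA-seq was done on polyadenylated RNA from pharyngeal arches 1 and 2, the embryonic swellings that build the jaws and parts of the ear, of female C57BL/6 mouse embryos at E10.5. There were 6 genotype groups with 4 biological replicates each. Wild type embryos carried Kat6a +/+ and Dlx5 +/+. Kat6a heterozygous and Dlx5 heterozygous embryos carried 1 knockout allele of the gene named. Double heterozygous embryos carried 1 knockout allele of each gene. In the homozygous groups both copies of either Dlx5 or Kat6a were knocked out, and the other gene was wild type. Kat6a, also known as Moz, acetylates histones, and Dlx5 is a homeodomain protein needed for lower jaw identity. The question, from the series title, is how losing either gene or both affects craniofacial development. Which part of each gene the knockout alleles remove is not stated in the labels.

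Embryos came from 2 mouse facilities, which the labels give as batches. Wild type and Kat6a homozygous libraries were all from batch 2 and Dlx5 homozygous libraries all from batch 1. Replicate 4 of each single heterozygous group and replicates 2, 3 and 4 of the double heterozygous group were from batch 1. Libraries held 10.4 to 28.2 M counts on genes. Neither targeted gene had a level in its own homozygous group that was called against wild type. Kat6a had 201 ± 41 CPM (mean ± SD, n = 4) in wild type and 227 ± 15 CPM in the libraries labelled Kat6a homozygous, and Dlx5 had 69.3 ± 6.8 CPM in wild type and 62.5 ± 5.1 CPM in the libraries labelled Dlx5 homozygous. Dlx5 was lower in the libraries labelled Kat6a homozygous, at 37.9 ± 3.3 CPM. A count over a whole gene need not drop when part of the gene is deleted, so these groups are called by their labels below. CPM is the count of a gene relative to the library's total, in counts per M counts, after TMM scaling. Markers of arch mesenchyme other than Prrx1 and Prrx2 were present in every library, with a summed level of 964 to 1354 CPM.

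Homeobox genes encode proteins that bind DNA through a homeodomain. Msx1 and Msx2 are classical targets of BMP signalling in the distal arches and in tooth and skull primordia, Prrx1 and Prrx2 mark mesenchyme of face and limb, and Alx1 and Alx4 are best known from the mesenchyme around the nose and the front of the upper jaw. Within each family the members act partly in each other's place, so that compound mutants have stronger facial defects than single ones. In RNA from whole arches, fewer cells of a type and less RNA per cell cannot be told apart.

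The 6 genes lie on 5 chromosomes. In RefSeq's GRCm38 annotation (the assembly that mm10 names), Msx1 (Entrez gene 17701) lies at chr5:37820491-37824585, Msx2 (17702) at chr13:53466881-53472780, Prrx1 (18933) at chr1:163245119-163315145 and Alx1 (216285) at chr10:103007847-103029549, all on the minus strand. Prrx2 (20204) lies at chr2:30845064-30881251 and Alx4 (11695) at chr2:93642434-93681341, both on the plus strand. Msx1 overlaps its antisense transcript Msx1os (chr5:37820564-37822751). Prrx1 overlaps the antisense gene Gm20471, and Alx4 overlaps Ext2 on the opposite strand. The libraries were stranded, but the labels do not say whether strand was used in counting. Prrx1 also overlaps Gm26523 and Gm37644, and Alx1 overlaps Gm17028, on the same strand. Some reads of these genes may therefore have been assigned to their overlapping partners, or the reverse.

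The members differ in base composition, and this is shown because Msx1 is set beside GC-rich genes further on. Guanine and cytosine made up 58.2% of the Msx1 transcript, 63.6% of Prrx2, 54.8% of Alx4, 48.5% of Msx2, 45.5% of Alx1 and 43.6% of Prrx1. The median over tested genes was 49.9%, and the 10% of tested genes with the highest share began at 58.0%, so Msx1 and Prrx2 belonged to these GC-rich genes. The stretches below are the 90 bases of coding sequence with the highest GC share inside 1 coding exon of each gene shown, 5′ to 3′ on the coding strand, from the GRCm38 genome with the GENCODE M21 annotation. Capitals mark CG dinucleotides.
Msx1, chr5:37823993-37824082, minus strand: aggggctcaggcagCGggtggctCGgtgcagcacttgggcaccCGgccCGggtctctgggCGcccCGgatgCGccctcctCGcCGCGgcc
Prrx2, chr2:30845583-30845672, plus strand: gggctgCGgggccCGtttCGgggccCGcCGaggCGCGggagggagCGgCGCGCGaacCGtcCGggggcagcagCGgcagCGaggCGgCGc
Prrx1, chr1:163312546-163312635, minus strand: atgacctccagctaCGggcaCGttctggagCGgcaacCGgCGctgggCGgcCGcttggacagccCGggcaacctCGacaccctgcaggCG
Alx1, chr10:103028395-103028484, minus strand: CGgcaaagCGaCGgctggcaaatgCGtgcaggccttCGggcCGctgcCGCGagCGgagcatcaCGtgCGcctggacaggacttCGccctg
The Msx1 stretch was 78.9% GC with 10 CG dinucleotides, and the Prrx2 stretch was 84.4% GC with 17. The stretch of Prrx1 reached 71.1% with 10 and that of Alx1 70.0% with 12. The stretches of Alx4 and Msx2, which are not printed, were 78.9% GC with 12 and 77.8% GC with 14. In its densest stretch Msx1 thus had the same GC share as Alx4. Msx1 was therefore not the member richest in GC, either over the transcript or in its densest coding stretch.

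Compared per length, as RPKM (CPM per kilobase of the gene length in the count table), the Prrx pair was far above the others. Over the 24 libraries the mean level was 109.9 RPKM for Prrx1, 90.7 for Prrx2, 30.5 for Msx2, 22.5 for Msx1, 22.4 for Alx4 and 9.74 for Alx1. The order of the Prrx genes was not the same in every library: the Prrx1 over Prrx2 ratio of RPKM ran from 0.838 to 1.34 within wild type alone. Msx1 and Alx4 were at the same mean level per length, within the spread of either. In wild type, Alx1 stood at 0.440 ± 0.042 of the Alx4 level per length (mean ± SD of the ratio, n = 4), and the group means of this ratio ran from 0.374 in the libraries labelled Kat6a homozygous to 0.492 in Dlx5 heterozygous libraries.

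**Figure D1:**
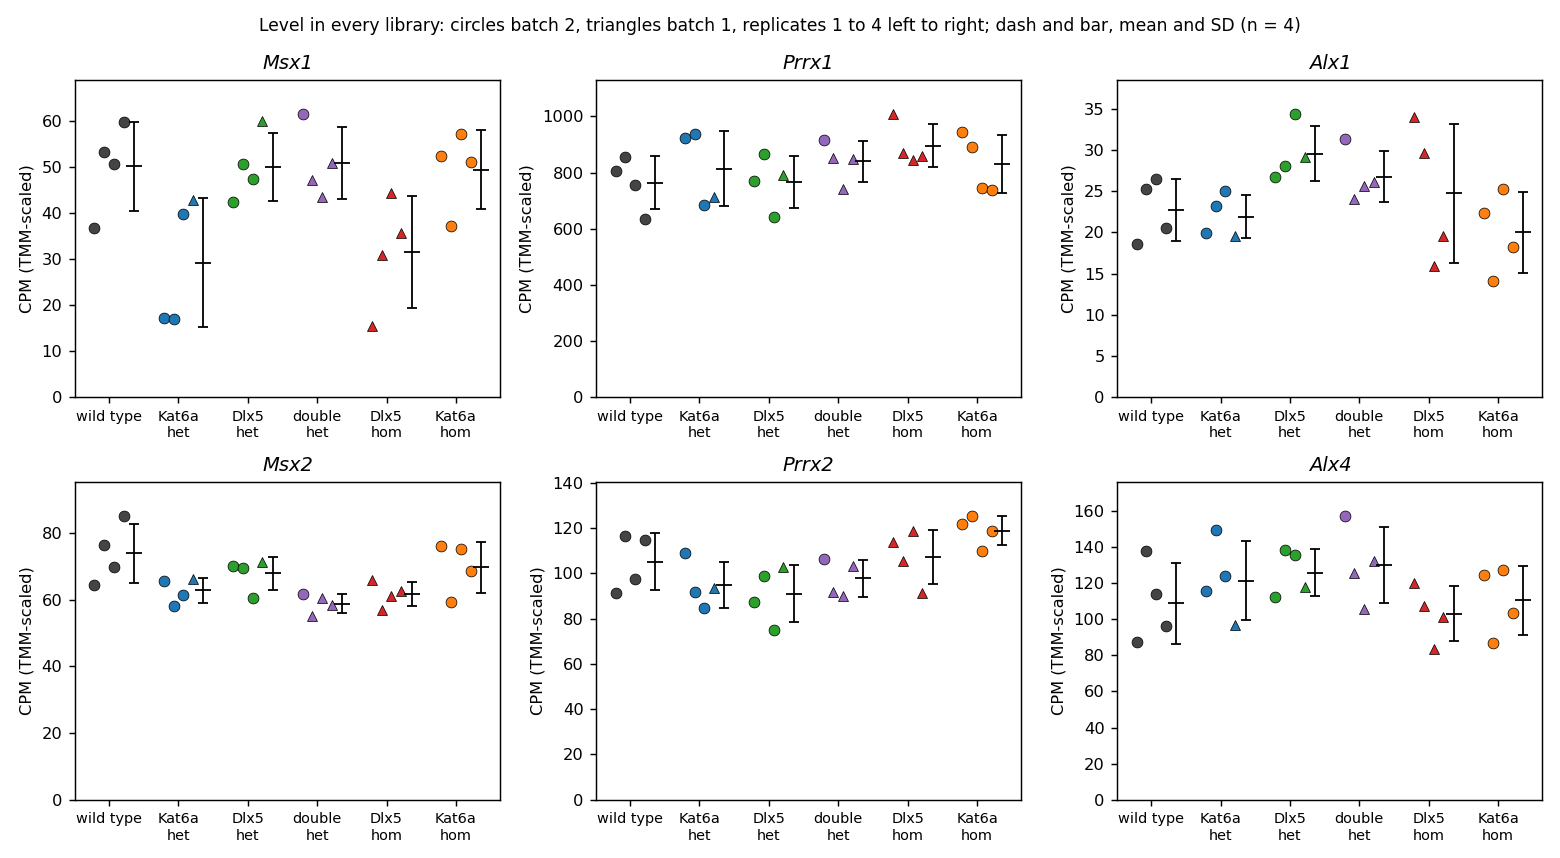
Level of each member in all 24 libraries, in TMM-scaled CPM on a linear axis from 0; circles are batch 2, triangles batch 1, and the dash and bar beside each group are mean and SD (n = 4). Msx1 has 3 libraries at 15.4 to 17.3 CPM, in 2 groups, far below the rest. Msx2 in double heterozygous libraries (55.1 to 61.6 CPM) lies below all wild type libraries (64.5 to 85.1 CPM). With the batch effect removed from log2 CPM, 13.4% of all tested genes were separated in that comparison.

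Differences from wild type were estimated in 1 edgeR quasi-likelihood model of all 24 libraries with a batch term. Calls required an adjusted p (Benjamini-Hochberg, over the 14506 tested genes) under 0.05. None of the 6 members was called against wild type in any group. Among all tested genes, 1.53% were called in the libraries labelled Kat6a homozygous, 0.448% in double heterozygous, 0.0551% in the libraries labelled Dlx5 homozygous, and 0% in Kat6a heterozygous and in Dlx5 heterozygous libraries. In the last pair of comparisons 1648 and 1645 genes had an unadjusted p under 0.05, and DESeq2 called 80 and 31 genes, none of them a member. With so few genes called, a count of 0 among 6 members is close to what the background gives in every comparison. The intervals of the differences are therefore given with them, and a missed threshold does not show that a level stayed the same. All 5 comparisons share the same 4 wild type libraries.

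**Figure D2:**
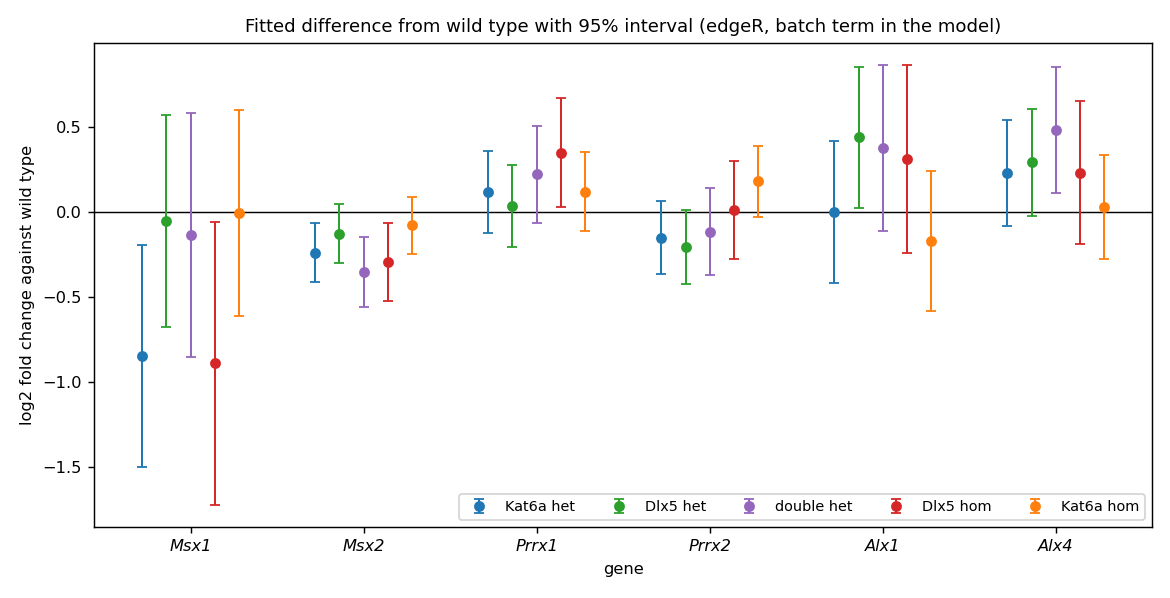
Fitted log2 fold change of each member against wild type in the 5 mutant groups, with 95% intervals from the edgeR model (24 libraries, batch term). The intervals of Msx1 are the widest, those of Msx2 the narrowest, and none of the differences passed the adjusted threshold although some intervals exclude 0.

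Msx2 encodes a repressor of the Msx family with roles in skull, tooth and distal arch mesenchyme. In wild type it had 64.5, 76.4, 69.9 and 85.1 CPM in replicates 1 to 4. In double heterozygous libraries it had 61.6, 55.1, 60.5 and 58.3 CPM. No double heterozygous library reached the lowest wild type library. With the fitted batch effect removed from log2 CPM, 13.4% of all tested genes were separated in this comparison. The fitted Msx2 difference was -0.35 on the log2 scale (SE 0.10, 95% interval -0.56 to -0.15, edgeR adjusted p = 0.11). Without wild type replicate 4, the highest of its group, the difference was -0.27. Without wild type replicate 1, the lowest of its group and the deepest library at 28.2 M counts, it was -0.42 and the adjusted p was 0.0445. Leaving out the lowest wild type library widens a fall by construction. The fit without wild type replicate 1 was the only one among 2328 alternative fits of the members that reached a call. In batch 2 alone, which holds 1 double heterozygous library, the difference was -0.27 (adjusted p = 0.796).

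In the other mutant groups Msx2 also had lower means than wild type. The libraries labelled Dlx5 homozygous had 65.9, 57.1, 61.0 and 62.8 CPM, with a fitted difference of -0.29 (SE 0.11, 95% interval -0.52 to -0.06, edgeR adjusted p = 0.400). Kat6a heterozygous libraries had 65.7, 58.1, 61.6 and 66.2 CPM, with a difference of -0.24 (SE 0.08, 95% interval -0.41 to -0.07, adjusted p = 0.282). Both groups overlapped wild type only through wild type replicate 1. Dlx5 heterozygous libraries had 70.3, 69.6, 60.7 and 71.2 CPM, and the libraries labelled Kat6a homozygous had 76.0, 59.3, 75.1 and 68.8 CPM, so both lay within or next to the wild type range. Their differences were -0.13 (SE 0.08) and -0.08 (SE 0.08), with edgeR adjusted p of 0.592 and 0.725. The non-additive part (how far the double heterozygous difference from wild type departs from the sum of both single heterozygous differences) was 0.01 for Msx2 (SE 0.12, 95% interval -0.23 to 0.25, adjusted p = 0.988), with 0.00689% of tested genes called.

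Msx1, the paralogue of Msx2 and a regulator of tooth and palate mesenchyme, varied more between libraries than any other member. Wild type libraries had 36.8, 53.3, 50.7 and 59.7 CPM. Kat6a heterozygous libraries had 17.3, 16.9, 39.7 and 42.8 CPM. The libraries labelled Dlx5 homozygous had 15.4, 30.8, 44.3 and 35.7 CPM. Kat6a heterozygous replicates 1 and 2 and replicate 1 labelled Dlx5 homozygous were thus below all other libraries. Kat6a heterozygous replicates 3 and 4 and replicate 3 labelled Dlx5 homozygous lay inside the wild type range, and replicates 2 and 4 labelled Dlx5 homozygous lay just below it. The ranges of the other groups overlapped the wild type range: Dlx5 heterozygous libraries had 42.5, 50.6, 47.4 and 60.0 CPM, double heterozygous libraries had 61.5, 47.2, 43.5 and 51.0 CPM, and the libraries labelled Kat6a homozygous had 52.4, 37.2, 57.2 and 51.0 CPM.

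In double heterozygous libraries the fitted Msx1 difference from wild type was -0.13 (SE 0.34, 95% interval -0.85 to 0.58, edgeR adjusted p = 0.901), and it ran from -0.64 without double heterozygous replicate 1 to 0.30 in batch 2 alone. The difference was -0.85 in Kat6a heterozygous libraries (SE 0.31, 95% interval -1.50 to -0.19, edgeR adjusted p = 0.320). It was -0.89 in the libraries labelled Dlx5 homozygous (SE 0.40, 95% interval -1.72 to -0.06, adjusted p = 0.483). In batch 2 alone the Kat6a heterozygous difference was -1.02 (adjusted p = 0.316). The libraries labelled Dlx5 homozygous share no batch with wild type, and their comparison rests on the fitted batch term. Within batch 1, Msx1 in these libraries differed from double heterozygous libraries by -0.58 (SE 0.34, adjusted p = 0.648), with 1.04% of tested genes called and no member among them. Without replicate 1 labelled Dlx5 homozygous it was -0.35 (adjusted p = 0.315).

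The spread of Msx1 was large for its level. After removal of group and batch means the SD between libraries was 0.45 on the log2 scale. Among the 500 tested genes nearest to it in mean level, 99.6% had a smaller SD, and their median was 0.11. The same SD was 0.12 for Msx2, which 72.8% of genes of like level stayed below. The 4 remaining members lay between these, at 0.16 for Prrx2, 0.18 for Prrx1, 0.22 for Alx4 and 0.30 for Alx1, with 92.0% to 98.0% of genes of like level below them.

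The libraries low in Msx1 were also the libraries low in GC-rich genes. For each library the median deviation from the gene means was taken over these GC-rich genes. It was lowest in replicate 1 labelled Dlx5 homozygous (-0.14 on the log2 scale), Kat6a heterozygous replicate 1 (-0.12) and Kat6a heterozygous replicate 2 (-0.10), and lay between -0.06 and 0.11 in the other 21 libraries. Msx1 was 1.49 lower on the log2 scale in these 3 libraries than in the other 21 (difference of means -1.49), and only 6 of 14506 tested genes, Msx1 included, were as low or lower. In all, 8 tested genes, Msx1 among them, were below -1 in each of the 3 libraries. Of the 7 with a known GC share, Msx1 included, all 7 were among the GC-rich genes, and their median share was 68.2%. The 3 libraries were picked as the lowest in GC-rich genes, so the choice of libraries itself favoured such genes in this count.

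The 3 genes whose pattern over the 24 libraries was most like that of Msx1 were Atp5d, a subunit of mitochondrial ATP synthase (Pearson r = 0.963 on log2 CPM with the batch effect removed), Ccdc85b (r = 0.962) and the zinc finger gene Zfp771 (r = 0.955). The likeness is a description over libraries that differ in genotype and depth, and group differences were not removed. None of the 3 is a homeobox gene, and they lie on chromosomes 10, 19 and 7. In the 3 libraries low in GC-rich genes they were shifted by -0.91, -1.07 and -1.47 against the other 21. They were picked for likeness to Msx1 over the same libraries, so a low level there follows largely from the choice. Their transcripts held 59.3%, 54.8% and 68.7% GC. Among the other members, Prrx2, richer in GC than Msx1, was shifted by 0.05 in the 3 libraries. The shift was -0.06 for Msx2, 0.09 for Alx1, 0.17 for Alx4 and 0.27 for Prrx1, the member poorest in GC. Msx1os, the antisense partner of Msx1, had 12.9 and 10.6 CPM in the low Kat6a heterozygous libraries and 11.0 CPM in the low library labelled Dlx5 homozygous, inside its range of 8.30 to 18.8 CPM over all libraries.

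**Figure D3:**
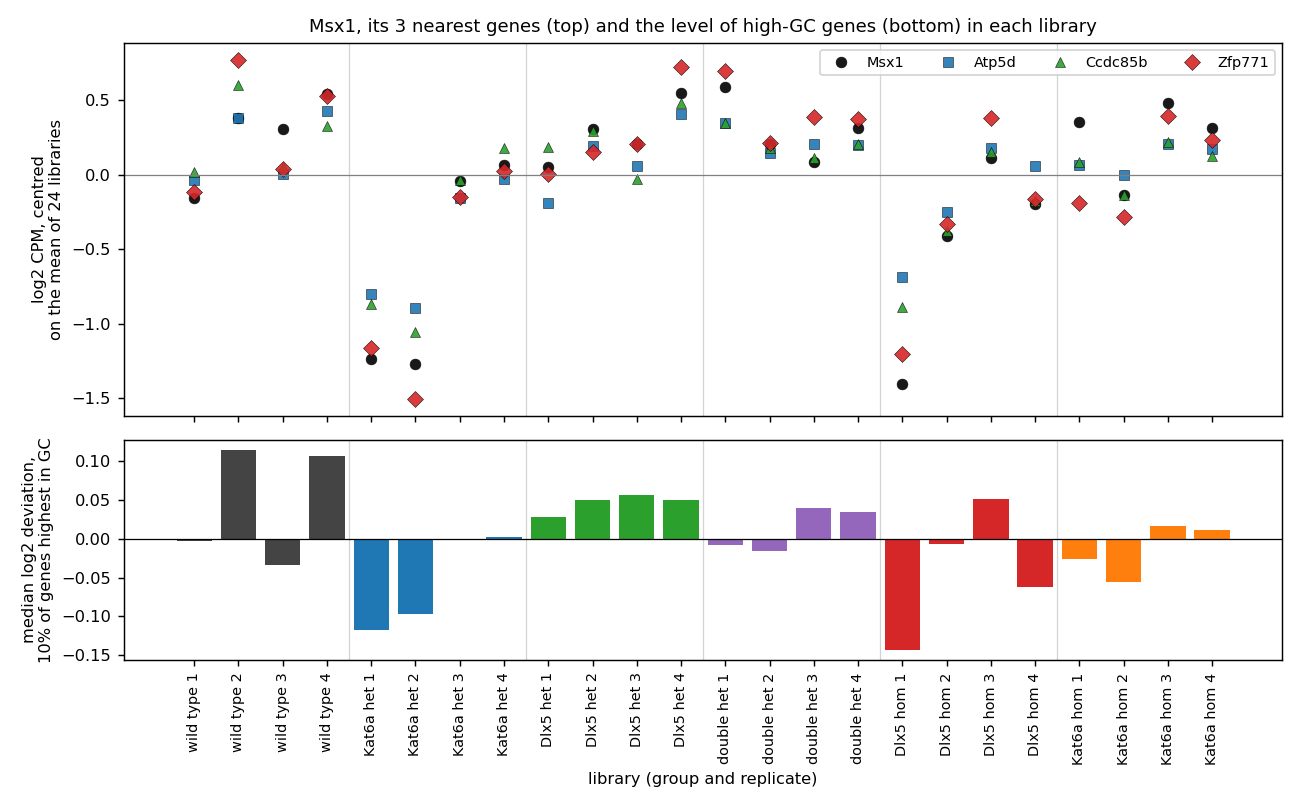
Top: log2 CPM of Msx1 and of the 3 genes most like it, each centred on its mean over 24 libraries; bottom: median log2 deviation of the 10% of genes with the highest GC share, by library. All 4 genes are lowest in Kat6a heterozygous replicates 1 and 2 and in replicate 1 labelled Dlx5 homozygous, the same libraries that have the lowest bars (-0.10 to -0.14). For the 3 genes chosen by likeness to Msx1 this follows largely from the choice.

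Without these 3 libraries the fitted Msx1 difference was -0.28 in Kat6a heterozygous libraries (adjusted p = 0.703) and -0.45 in the libraries labelled Dlx5 homozygous (adjusted p = 0.785). These were also the 3 libraries lowest in Msx1, so smaller Msx1 differences without them follow from the choice. Of the Kat6a heterozygous group, replicate 3 (batch 2) and replicate 4 (batch 1) remained. With per-library offsets for GC share and length the differences were -0.73 (adjusted p = 0.507) and -0.76 (adjusted p = 0.542). The part of base composition in the Msx1 levels was not tested. Against Kat6a heterozygous libraries, the libraries labelled Kat6a homozygous had an Msx1 difference of 0.84 (SE 0.31, edgeR adjusted p = 0.329) with all libraries and 0.27 (adjusted p = 0.730) without the 3 libraries. In that comparison 0.641% of tested genes and no member were called.

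Prrx1 encodes a paired-related factor that marks limb and facial mesenchyme. Wild type libraries had 807, 855, 756 and 635 CPM. The libraries labelled Dlx5 homozygous had 1009, 870.0, 845 and 860.3 CPM, so that only wild type replicate 2 reached into their range. The fitted difference was 0.35 (SE 0.16, 95% interval 0.03 to 0.67, edgeR adjusted p = 0.482). It was 0.20 (adjusted p = 0.820) without the 3 libraries low in GC-rich genes and 0.19 (adjusted p = 0.834) with the replicate number as a block. Prrx1 was at 686 to 936 CPM in Kat6a heterozygous, 640.4 to 865 in Dlx5 heterozygous, 741 to 916 in double heterozygous libraries and 739 to 946 in those labelled Kat6a homozygous. All of these ranges overlapped wild type, and the fitted differences were 0.12, 0.04, 0.22 and 0.12. With offsets for GC share and length they were -0.02, -0.03, 0.09 and 0.01. Without the 3 libraries low in GC-rich genes the Kat6a heterozygous difference was -0.12, and without wild type replicate 4 the Dlx5 heterozygous one was -0.04.

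Prrx2, the paralogue of Prrx1, had 91.2, 116, 97.5 and 115 CPM in wild type. Its highest group was the one labelled Kat6a homozygous, with 122, 125, 109.9 and 119 CPM. The difference from wild type was 0.18 (SE 0.10, 95% interval -0.03 to 0.39, edgeR adjusted p = 0.439). It was 0.31 with offsets for GC share and length and 0.11 without wild type replicate 1. Kat6a heterozygous libraries had 109.1, 91.6, 84.8 and 93.6 CPM. The highest of them was close to the lowest library labelled Kat6a homozygous (109.9 CPM). The share of all tested genes separated between these groups was not counted. The difference between these groups was 0.33 (SE 0.10, 95% interval 0.12 to 0.55, adjusted p = 0.183), and it was 0.20 (adjusted p = 0.655) with offsets for GC share and length. Dlx5 heterozygous libraries had 74.8 to 103 CPM, double heterozygous 90.1 to 106 and those labelled Dlx5 homozygous 91.4 to 119. All 3 groups overlapped wild type, with fitted differences of -0.21, -0.12 and 0.01. The direction of the last 2 depended on the setting. With offsets for GC share and length they were 0.05 and 0.29, and without double heterozygous replicate 1 they were -0.25 and -0.09. The Kat6a heterozygous difference from wild type, -0.15, was 0.11 with these offsets.

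Alx1, whose loss causes severe defects of the upper face, had 18.6, 25.3, 26.4 and 20.6 CPM in wild type. Dlx5 heterozygous libraries had 26.7, 28.0, 34.4 and 29.1 CPM, the lowest of them just above the highest wild type library. With the fitted batch effect removed from log2 CPM, 5.12% of all tested genes were separated in this comparison. The fitted Alx1 difference was 0.44 (SE 0.20, 95% interval 0.03 to 0.85, edgeR adjusted p = 0.407), and it was 0.39 in batch 2 alone (adjusted p = 0.601). Double heterozygous libraries had 31.3, 24.0, 25.6 and 26.1 CPM (difference 0.38, SE 0.23, adjusted p = 0.508). Those labelled Dlx5 homozygous split into replicates 1 and 2 at 33.9 and 29.6 CPM and replicates 3 and 4 at 15.9 and 19.6 CPM (difference 0.32, SE 0.27, adjusted p = 0.705). Without replicate 1 of that group the difference was 0.12. Kat6a heterozygous libraries, at 19.5 to 25.0 CPM, and those labelled Kat6a homozygous, at 14.1 to 25.3 CPM, overlapped wild type.

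Alx4, a factor of frontonasal, skull and limb mesenchyme, had 87.1, 138, 114 and 96.1 CPM in wild type and 157, 126, 106 and 132 CPM in double heterozygous libraries. The groups overlapped. The fitted difference was 0.48 (SE 0.18, 95% interval 0.11 to 0.85, edgeR adjusted p = 0.233), and it was 0.26 (adjusted p = 0.546) without the batch term. The batch term of Alx4 (batch 1 minus batch 2) was -0.30 (SE 0.14, edgeR adjusted p = 0.732) and was not called, with 0.0345% of tested genes called for batch. In the other groups Alx4 was at 96.9 to 149 CPM (Kat6a heterozygous), 112 to 138 (Dlx5 heterozygous), 83.7 to 120.1 (labelled Dlx5 homozygous) and 86.7 to 127 CPM (labelled Kat6a homozygous), all overlapping wild type.

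Neuron marker levels also varied between the libraries. Of 15 listed markers 14 were tested, and none was called against wild type in any of the 5 mutant groups. Their summed level was 235 to 424 CPM in double heterozygous libraries and 136 to 169 CPM in those labelled Dlx5 homozygous. In the other groups it ran from 135 to 580 CPM in wild type, 148 to 654 in Kat6a heterozygous, 160 to 493 in Dlx5 heterozygous libraries and 162 to 411 CPM in those labelled Kat6a homozygous. With a neuron marker score as covariate, the Alx4 difference of double heterozygous libraries was 0.40 (edgeR adjusted p = 0.389) and that of Msx2 was -0.30 (adjusted p = 0.222). The score was above 0 in all 4 double heterozygous libraries and in 6 libraries of other groups, so that leaving out those 6 would make score and genotype coincide. The part of neuronal tissue in these differences was not tested beyond these values.

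When the fitted batch effect was removed from log2 CPM, the number of members whose 4 mutant libraries all lay on 1 side of all 4 wild type libraries was 3 of 6 in the group labelled Dlx5 homozygous (Prrx1 above, Msx1 and Msx2 below), 2 of 6 in double heterozygous (Alx1 above, Msx2 below), 1 of 6 in Dlx5 heterozygous (Alx1 above) and 0 in both other groups. Among all tested genes the share separated in this way was 11.7%, 13.4% and 5.12% in the first 3 groups, 4.69% in Kat6a heterozygous libraries and 6.40% in those labelled Kat6a homozygous. The group labelled Dlx5 homozygous shares no batch with wild type, and in CPM its Prrx1, Msx1 and Msx2 levels overlapped wild type. Their separation rests on the fitted batch effect, as does that of Alx1 in double heterozygous libraries. For Msx2 the nearest libraries were at 6.028 (labelled Dlx5 homozygous) and 6.031 (wild type) after its removal. No member was called in the test of any difference among the 6 groups, in which 1.39% of tested genes were called. Prrx2 had the lowest adjusted p of the members there (0.190), followed by Msx2 (0.261) and Msx1 (0.290). No member was called for the labelled Dlx5 homozygous group against Dlx5 heterozygous libraries (0% of tested genes), nor for double heterozygous libraries against Kat6a heterozygous (0.0276%) or Dlx5 heterozygous ones (0.0138%).

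Members were then compared with each other over the 24 libraries, after group and batch means had been removed. Of 15 pairs, only Alx1 and Alx4 passed the adjusted threshold. Their Pearson r was 0.779 (p = 1e-05, the smallest that 100000 resamples can give, two-sided permutation test; adjusted p = 0.00015), and Spearman's coefficient was 0.786 (p = 3e-05, adjusted p = 0.00045). Without the 2 libraries farthest from the median of Alx1 the r was 0.737, within the 15 libraries of batch 2 it was 0.826, and with the neuron marker score also removed it was 0.836. Both genes deviated to the same side in 21 of 24 libraries. The permutation tests treated the 24 deviations as independent, although 17 residual degrees of freedom remained after group and batch were fitted. Their p values for all 15 pairs therefore tend to be too small.

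The paralogues of the other families gave weaker values: r was 0.490 for Prrx1 and Prrx2 (permutation p = 0.0161, adjusted p = 0.0805; Spearman's coefficient 0.471, p = 0.0214, adjusted p = 0.107) and 0.266 for Msx1 and Msx2 (permutation p = 0.208, adjusted p = 0.404; Spearman's coefficient 0.319, p = 0.129, adjusted p = 0.323). A pair from different families, Msx1 and Prrx1, had a larger r in size than either, at -0.531 (permutation p = 0.00695, adjusted p = 0.0521). Its Spearman's coefficient was -0.478 (permutation p = 0.0184, adjusted p = 0.107), and r was -0.426 without the 2 libraries farthest from the median of Msx1. Whether the Alx pair differs from these pairs in r was not tested.

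**Figure D4:**
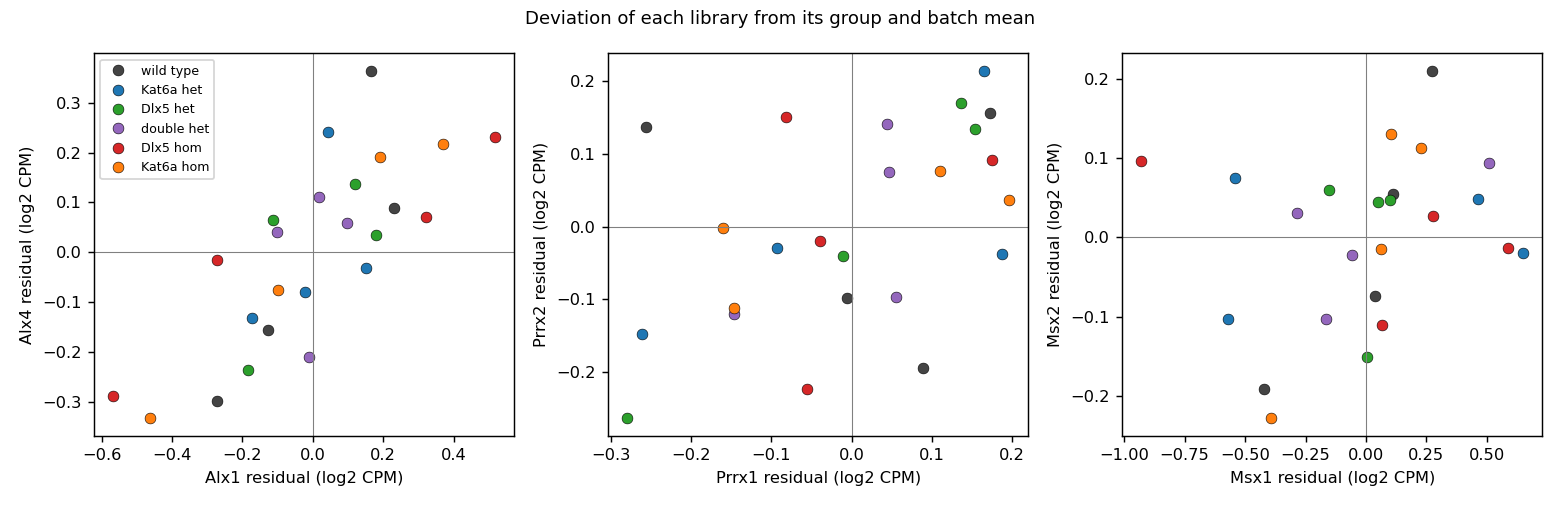
Deviation of each of 24 libraries from its group and batch mean, in log2 CPM, for the paralogue pairs Alx1 and Alx4 (left), Prrx1 and Prrx2 (middle) and Msx1 and Msx2 (right); colours are genotype groups and axes differ between panels. Alx1 and Alx4 deviate together (r = 0.779), Prrx1 and Prrx2 less so (r = 0.490), and Msx1 and Msx2 show r = 0.266.

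The nearest genes by pattern differed between the members. For Prrx1 they were Rhobtb3 (r = 0.961), Tcf12, a basic helix-loop-helix factor (r = 0.955), and Arhgap28 (r = 0.954). For Prrx2 they were the translation factor subunit Eif2b3 (r = 0.907), the tRNA synthetase subunit Farsb (r = 0.895) and the nucleolar gene Lyar (r = 0.890). Alx1 was nearest to the potassium channel gene Kcnj2 (r = 0.847), the Wnt receptor gene Fzd1 (r = 0.847) and Nrep (r = 0.840). Alx4 was nearest to the secreted Wnt antagonist gene Frzb (r = 0.896), Bcl11a (r = 0.894) and Nsg1 (r = 0.862), and Msx2 to D8Ertd738e (r = 0.844), Arpc5l (r = 0.822) and Akip1 (r = 0.794). These likenesses are descriptions over 24 libraries among 12764 genes. The libraries differ in genotype, depth and marker levels, and group differences were not removed.

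Other homeobox genes of arch mesenchyme were called in 1 of the 5 comparisons with wild type. In the libraries labelled Kat6a homozygous 9 of 37 such genes fell and 0 rose, with a median log2 fold change of -0.07, while 1.53% of all tested genes were called and their median was 0.01. The list was chosen with earlier results of these data known, so setting it beside all genes is a description and not a test. Dlx5 fell from 69.3 ± 6.8 to 37.9 ± 3.3 CPM (mean ± SD, n = 4; log2 fold change -0.87, SE 0.08, edgeR adjusted p = 1.47e-07). Dlx3, a further Dlx gene of the distal arch, fell from 100.4 ± 6.0 to 55.1 ± 5.6 CPM, Dlx4 from 4.65 ± 0.48 to 2.02 ± 0.14 and Gbx2 from 10.8 ± 2.1 to 3.96 ± 1.47 CPM. Of 6 tested markers of neural tube and eye, 3 fell in the same comparison (Six3, Emx2 and En2, with Emx2 also among the 9 genes) and 0 rose, with a median log2 fold change of -1.06 over the 6. The summed level of the 10 listed markers was 17.5 to 27.2 CPM in these libraries and 40.7 to 50.5 CPM in wild type, and their part in the homeobox count was not tested. In the same comparison the 6 members had differences between -0.17 (Alx1) and 0.18 (Prrx2). In the other 4 mutant groups none of the 37 genes was called against wild type.

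BMP pathway genes, the upstream signal best known for the Msx genes, were mostly not called. Of 12 tested ligand and antagonist genes 0 were called in any of the 5 comparisons with wild type. Among 10 receptors and Smads, 1 rose and 1 fell in the libraries labelled Kat6a homozygous: Smad9, a BMP signal transducer, rose by 0.44 (SE 0.10, edgeR adjusted p = 0.0192), and the receptor gene Bmpr1b fell by 0.30 (SE 0.08, adjusted p = 0.0477). Of 14 BMP response genes other than the Msx genes, 1 rose there, Id2 (log2 fold change 0.28, SE 0.07, adjusted p = 0.0400). In the same libraries Msx1 had a difference of -0.01 (SE 0.29, 95% interval -0.61 to 0.60) and Msx2 of -0.08 (95% interval -0.24 to 0.09). None of the BMP genes was called against wild type in the other 4 groups, and the median of the 14 response genes there ran from -0.20 in Kat6a heterozygous to -0.04 in double heterozygous libraries.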

How the data were processed

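Per the labels' protocols, polyadenylated RNA was made into libraries with a stranded mRNA kit. The submitters' processing notes name CASAVA 1.8.2, featureCounts and the build mm10; the aligner, the annotation and the strand setting of the counting were not given in these sources. The authors deposited raw counts per gene, without normalization, with Entrez identifiers and gene lengths. The 568 of 27179 entries without an identifier (0.182% to 0.259% of a library) were left out, and 25275 of 26611 identifiers matched a symbol.

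Group, replicate and batch came from the labels. Counts were tested with edgeR 4.0.16 in R 4.3.3: filterByExpr by group (14506 genes), TMM, robust quasi-likelihood fit of 6 group means and batch over 24 libraries (17 residual degrees of freedom), Benjamini-Hochberg over all tested genes. Log2 CPM used a prior count of 2. The members and gene lists were chosen with earlier results of these data known. Always named were the members, Kat6a and Dlx5 (a further gene is not reported here), for each list up to 4 called genes of smallest adjusted p, and for each member the 3 genes of highest Pearson r among tested genes with a mean of at least 1 CPM. The median over the 14 response genes, Msx1os and the marker sums were described after their values were seen. DESeq2 1.42.0, limma 3.58.1 (voom with quality weights) and the other settings of the closing section were alternatives; offsets for GC share and length, and the removal of the 3 libraries low in GC-rich genes or of neuron-rich libraries, were added after seeing the data. The main procedure was tested on simulated counts.

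Same-numbered libraries deviated together in all 4 pairs (r over 0.1, from the data alone) for Kat6a heterozygous and wild type (0.162 to 0.654) and for Kat6a homozygous and heterozygous labels (0.104 to 0.604). No replicate pair agreed within sampling noise (chi-square per degree of freedom 3.04 to 23.3). Counting depth was 167 counts or more for each member in each library.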

Additional observations from a re-analysis of the deposited data

Results flagged for a closer look

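In 2 of 60 groups of 4 libraries examined for the members and the other genes always named, 1 library lay apart from the other 3 by more than 0.829 of the range of the group, which chance gives in about 1 in 20 groups. Msx2 was lowest in Dlx5 heterozygous replicate 3, at 60.7 CPM against 69.6 to 71.2 CPM in the rest of its group. Prrx1 was highest in replicate 1 labelled Dlx5 homozygous, at 1009 CPM against 845 to 870.0 CPM in the rest. The same library had the lowest Msx1 level of the series (15.4 CPM) and the lowest level of GC-rich genes.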

How the results depend on the processing

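The number of members called was 0 in each comparison of the main model. It stayed at 0 under DESeq2, limma voom, RLE scaling, offsets for length or for GC share and length, no filter, a stricter filter, only the groups compared, batch 2 alone, a model without batch, a neuron score as covariate and the removal of neuron-rich libraries or of the 3 libraries low in GC-rich genes. Leaving out 1 library at a time gave 0 to 1 called members for double heterozygous against wild type (1 without wild type replicate 1, Msx2) and 0 in the other comparisons. The replicate block gave 0 called members in each comparison with wild type and changed no call of a member. The removal of neuron-rich libraries spared the double heterozygous group, whose libraries all had a score above 0, so it does not separate score from genotype there. Only the groups compared could not be fitted for the labelled Dlx5 homozygous group against wild type, and batch 2 alone holds none of its libraries. Depth left at least 167 counts for every member in every library, while the 95% intervals of Msx1 against wild type span more than 1 log2 unit.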
